A study of Mus musculus with 22 samples.

Results

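The transcripts described here carry the names of cytosolic ribosomal proteins and their paralogs. Members were taken by symbol: Rpl or Rps with a number and an optional letter or l suffix, together with Rplp0, Rplp1, Rplp2 and Rpsa, leaving out the Rps6k kinases and pseudogenes. This gave 69 genes of the 11807 named on the array, 40 of the large subunit, 23 of the small subunit and 6 paralogs (Rpl22l1, Rpl36al, Rpl39l, Rpl3l, Rpl7l1 and Rps27l). No measured value enters that choice. Where a gene had several probe sets, the one brightest on average across all 22 arrays was read. Rpl5 appeared only in probe sets shared with other symbols and has no value here.

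Each array held amplified RNA from the intima of C57BL/6 mouse aortas, the inner layer, scraped off after collagenase, with an RNA integrity number of at least 7.0. LPS (4 ng/mL), oxLDL (50 µg/mL) or oxPAPC (50 µg/mL) was added to DMEM with 1% FBS for 4 h around opened wild-type aortas, with 3 arrays for each stimulus. The reference for the stimuli was the same medium alone for the same time (3 arrays, wild type). Fresh intima, never incubated, came from ApoE -/- mice (4 arrays), which are hyperlipidemic but had no lesions, and from wild-type mice (6 arrays). Fresh mice were 4 weeks old and on chow. For the incubated aortas no age is given, and the number of mice behind each array is not stated, so p-values cover only the spread between arrays, which may be technical. LPS is a bacterial cell wall component, oxLDL is oxidized low-density lipoprotein, and oxPAPC is an oxidized phospholipid mixture of the kind found in such particles.

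A ribosome is built from a large and a small subunit, each a core of ribosomal RNA dressed with many proteins that are mostly present in a single copy, so cells make them in matched amounts. Their mRNAs are among the most abundant in animal cells and begin with a run of pyrimidines, the 5′ terminal oligopyrimidine (TOP) tract, through which mTORC1 and LARP1 adjust their translation and stability. RNA polymerase I and a large set of nucleolar biogenesis factors make and process the rRNA, and these factors are known to be induced together by growth signals and serum.

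Promoter windows from the RefSeq table (build GRCm38.p6) were available for 56 of the 69 members (81.2%). A TOP-like start was defined as a C at the annotated start, followed directly by at least 4 bases that are each C or T on the transcribed strand. It occurred in 10 of these 56 genes (17.9%), against 813 of all 27025 genes in the table (3.01%). The 10 genes were Rpl14, Rpl15, Rpl28, Rpl35, Rpl35a, Rplp2, Rps10, Rps18, Rps21 and Rps6. With the run allowed to begin anywhere from 10 bases before to 10 bases after the start, 33 of 56 members (58.9%) and 34.4% of all genes held one. The windows below show 5 members that have such a start and 3 that lack it at the annotated base, chosen with their values known because results further on turn on most of them, while Rpl15 has the longest run of those that begin with C (13 bases) and Rps6, the S6 kinase target, the brightest probe set. Each line runs from 40 bases before the start to the first 20 transcribed bases, 5′ to 3′ on the gene's strand, and capitals mark the pyrimidine run of a TOP-like start.
Rpl14, chr9:120571477-120571536, plus strand: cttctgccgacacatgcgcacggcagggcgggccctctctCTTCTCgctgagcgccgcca
Rplp2, chr7:141447611-141447670, plus strand: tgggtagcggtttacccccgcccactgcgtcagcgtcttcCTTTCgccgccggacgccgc
Rps18, chr17:33955646-33955705, minus strand: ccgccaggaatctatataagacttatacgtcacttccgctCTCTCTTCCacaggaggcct
Rps6, chr4:86857348-86857407, minus strand: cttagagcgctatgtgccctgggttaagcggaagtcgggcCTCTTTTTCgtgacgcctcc
Rpl15, chr14:18270967-18271026, minus strand: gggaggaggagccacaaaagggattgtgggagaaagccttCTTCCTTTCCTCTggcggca
Rpl7l1, chr17:46782637-46782696, minus strand: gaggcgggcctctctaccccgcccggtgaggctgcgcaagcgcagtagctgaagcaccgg
Rpl22l1, chr3:28805468-28805527, plus strand: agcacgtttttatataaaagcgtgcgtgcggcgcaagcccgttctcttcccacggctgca
Rpsa, chr9:120127726-120127785, plus strand: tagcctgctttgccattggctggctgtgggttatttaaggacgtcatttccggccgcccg
The start bases are annotated ones, not measured in these aortas, so a missing run says only that these letters do not begin at that base.

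The members were bright and even. Of the 69, 67 lay above the 40th percentile of every array, the percentile on which the level filter rests, and 54 averaged at or above the 90th percentile. Rpl3l, a striated muscle form, and Rpl39l, a form known from testis, lay below that percentile on all 22 arrays, at group means between 3.45 and 3.56 for Rpl3l and between 3.93 and 4.25 for Rpl39l (log2 signal), and were not tested. Over the 67 tested members the 6 group means of a gene spanned a median of 0.40 on the log2 scale. Over 7941 genes that exceeded the 40th percentile on at least 3 arrays, as the filter asks, the median span was 0.93. The members exceeded it on all 22 arrays, whereas those genes may do so in 1 group only, so the sets differ in this too. The median SD within a group was 0.14 for members and 0.25 for those genes. Their median level was 9.89 and 6.56, so spans and SDs are set side by side for genes of unlike brightness. Across the 67 members the span went with the brightness of the probe set (Spearman's rho −0.565, a description over genes that share all arrays). The dimmest probe sets, those of Rpl14, Rpl22l1 and Rpl7l1, had spans of 1.46, 0.84 and 1.88, and without these 3 rho was −0.503. A probe set's brightness depends on its probes, so it is no measure of abundance between genes. In all, 50 members passed the test in none of the 8 comparisons and 19 in at least 1. The heatmap of the members shows these features array by array.

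**Figure D1:**
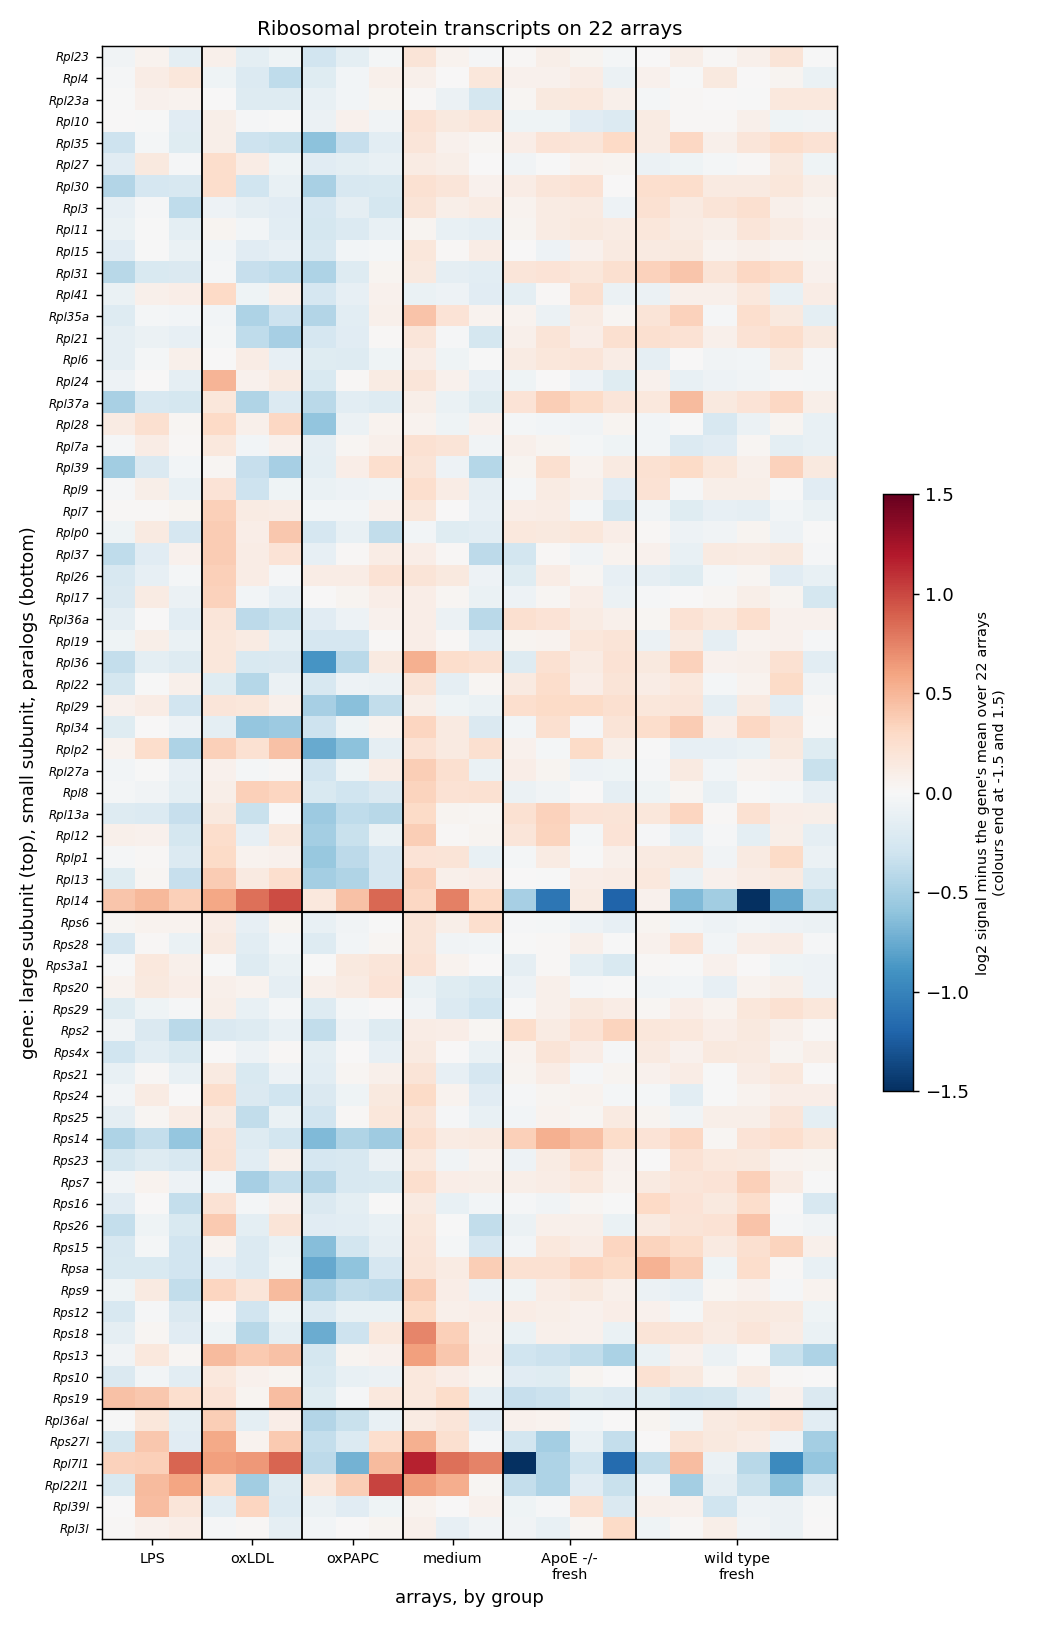
Log2 signal of each of the 69 members on the 22 arrays, as the difference from that gene's mean over all arrays (red above, blue below), with arrays grouped along the horizontal axis and genes ordered by subunit and brightness. Most rows are pale; Rpl14, Rpl7l1 and Rpl22l1 are blue on most of the fresh arrays, and the first oxPAPC array (replicate 11) is blue in most rows.

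Arrays of 1 group correlated with each other at 0.977 to 0.991 over all genes. Apoe measured 3.04 to 3.23 in fresh ApoE -/- intima and 3.78 to 4.35 in fresh wild-type intima. Both lay below the 40th percentile of each array but did not overlap. The incubated wild-type arrays ran from 3.06 to 3.89 and reached into the ApoE -/- range, so this probe set is a weak check of genotype. In each group's means 16 of 17 endothelial markers lay above that percentile, as did all 13 smooth muscle markers except 1 in medium, so markers of both cell types were measured in the scraped layer. All 6 T and B cell markers were below it in every group. In bulk RNA of this kind, fewer cells of a type and less RNA per cell cannot be told apart.

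Incubation in medium alone is the widest contrast in the series, and the ribosomal protein genes moved little in it. Of 7508 genes tested, 24.3% were higher in medium than in fresh wild-type intima and 34.4% lower at a limma adjusted p under 0.05. Among the 67 members 5 were higher and 2 lower, 10.4% in all against 58.7% of all genes. The median size of a difference, whatever its sign, was 0.12 for members and 0.52 for all genes, on the log2 scale. Their signed median was 0.01 for members and −0.13 for all genes. The higher members were Rpl7l1, Rpl14, Rpl22l1, Rps13 and Rpl8, and the lower ones Rpl31 and Rps29. The groups did not overlap in 10 of the 67 members, among them 6 of the 7 that passed the test. Over all genes they did not overlap in 3936 of 7508, a larger share.

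**Figure D2:**
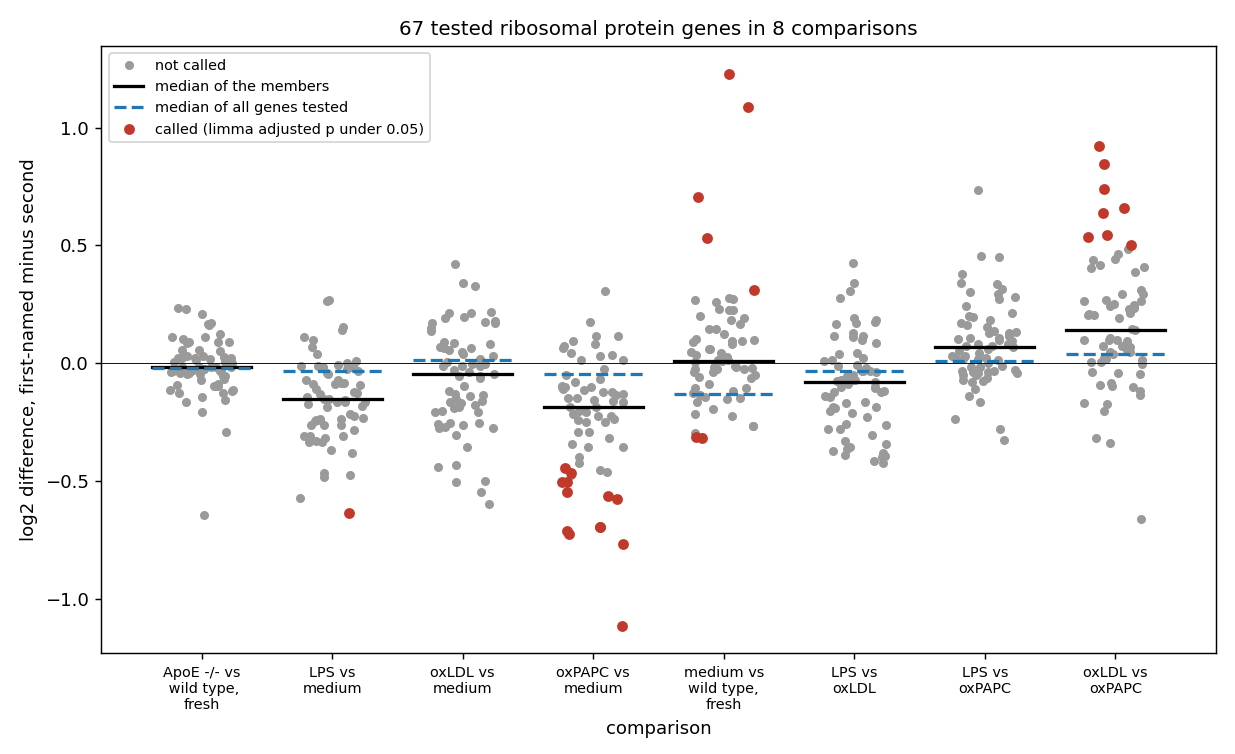
Log2 difference (first-named group minus second) of each of the 67 tested members in the 8 comparisons; red points passed the limma test, grey ones did not, the black bar is the members' median and the dashed blue bar the median of all genes tested. Medium against fresh wild type has 5 red points above 0 and 2 below, oxPAPC against medium has 13 below, and oxLDL against oxPAPC has 8 above.

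Rpl7l1, a paralog of the large subunit protein Rpl7, had the largest rise in medium. It measured 8.31, 7.99 and 7.90 in medium, and from 6.21 (median 6.77) to 7.62 in the 6 fresh wild-type arrays. All medium arrays lay above the highest fresh one, and the difference was 1.23 ± 0.26 (SE), 2.35-fold, with a limma adjusted p of 0.0019. Rpl7 itself, which forms part of the large subunit proper, differed by 0.12 ± 0.10 (adjusted p = 0.327). A second, dimmer probe set of Rpl7l1 gave 1.45 ± 0.13.

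Rpl14, a large subunit protein with a TOP-like start in the windows above, measured 6.68, 7.13 and 6.68 in medium. Its fresh wild-type values ran from 4.78 (median 5.78) to 6.44, the widest spread of any of the 3 genes, yet still all below medium. The difference was 1.09 ± 0.29 (adjusted p = 0.00838), or 2.13-fold. Rpl22l1, the paralog of Rpl22, had 7.24, 7.16 and 6.64 in medium and 6.01 (median 6.34) to 6.56 in fresh wild-type intima. These groups were separate by a small margin, and the difference was 0.71 ± 0.17 (adjusted p = 0.00433). Rpl22, an RNA-binding protein of the large subunit, differed by −0.06 ± 0.12 (adjusted p = 0.693). Rpl14, Rpl22l1 and Rpl7l1 passed the test in each of the 9 fits that left out 1 array.

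The other calls were smaller. Rps13, a small subunit protein, had 9.03, 8.82 and 8.51 in medium against 7.95 (median 8.32) to 8.47 in fresh wild-type intima, higher by 0.53 ± 0.15 (adjusted p = 0.0124). Rpl8, a large subunit protein near the peptidyl transferase centre, had 9.19, 9.07 and 9.08 in medium against 8.73 (median 8.81) to 8.89, higher by 0.31 ± 0.10 (adjusted p = 0.0165). Both calls were lost without medium replicate 9 (adjusted p = 0.0719 and 0.0749). Rps29, a small subunit zinc-binding protein, had 10.88, 10.72 and 10.62 in medium against 10.96 (median 11.06) to 11.16 and fell by 0.31 (SE 0.10, adjusted p = 0.023). Rpl31, near the exit of the peptide tunnel, had 10.68, 10.41 and 10.38 in medium against 10.60 (median 10.83) to 10.96. The highest medium array of Rpl31 reached into the fresh range, and the gene fell by 0.32 (SE 0.12, adjusted p = 0.0396). Rps29 was not called without medium replicate 10 or 11, and Rpl31 was called in 3 of the 9 fits with an array left out.

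These small sizes depend on the probe set and the scaling. With the mean of all probe sets of a gene 13 members were higher and 4 lower, with probe sets that carry no cross-hybridization suffix (_x_at or _s_at) 11 and 1, with an intensity trend in the variance 9 and 7, with cyclic loess 5 and 8, and with each array centred on its median 10 and none. Over all genes cyclic loess gave 1928 higher and 2333 lower of 7535, and median centring 2063 and 2236 of 7508. As deposited, 1824 were higher and 2586 lower. Rpl31 illustrates the dependence on the probe set: its other probe sets gave −0.29, −0.28 and 0.72. Of the 7 other probe sets of called members, 6 had the sign of the main one.

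The factors that assemble ribosomes, unlike most members, stood far from their fresh levels. Of 25 ribosome biogenesis factors tested 24 were higher in medium and none lower, with a median difference of 1.77, while Bop1 differed by 0.03 ± 0.16. Nhp2, a protein of the H/ACA complexes that guide rRNA modification, was higher by 2.97 ± 0.15 (adjusted p = 1.95e-07). Of 11 RNA polymerase I genes 7 were higher and 2 lower (median 0.76), with the polymerase subunit Polr1e at 1.89 ± 0.17 and the promoter factor Taf1b at −1.41 ± 0.15.

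Other mRNAs with a TOP tract, the elongation and initiation factor genes, had 4 of 16 higher and 1 lower in medium (median 0.12). Pabpc1, the poly(A)-binding protein, was highest at 0.73 ± 0.16, and Eif3f fell by 0.32 (SE 0.10). Fau, which encodes a small subunit protein fused to a ubiquitin-like one, was outside the naming rule and was higher by 0.29 ± 0.11 (adjusted p = 0.0493). The proteins of the separate mitochondrial ribosome had 16 of 63 higher and 21 lower, with Mrps6 at 1.70 ± 0.18 and Mrpl42 at −1.53 ± 0.16. Their share called was 58.7%, that of all genes. Among 12 regulators of mTORC1 and TOP mRNAs 5 were higher and 5 lower. Sesn2, a stress-induced inhibitor of mTORC1, was higher by 3.59 ± 0.17, and its relative Sesn1 was lower (−1.98 ± 0.17). Cap-binding and eIF2 factors were higher in 7 of 13 and lower in none, led by Eif1a at 2.83 ± 0.14.

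**Figure D3:**
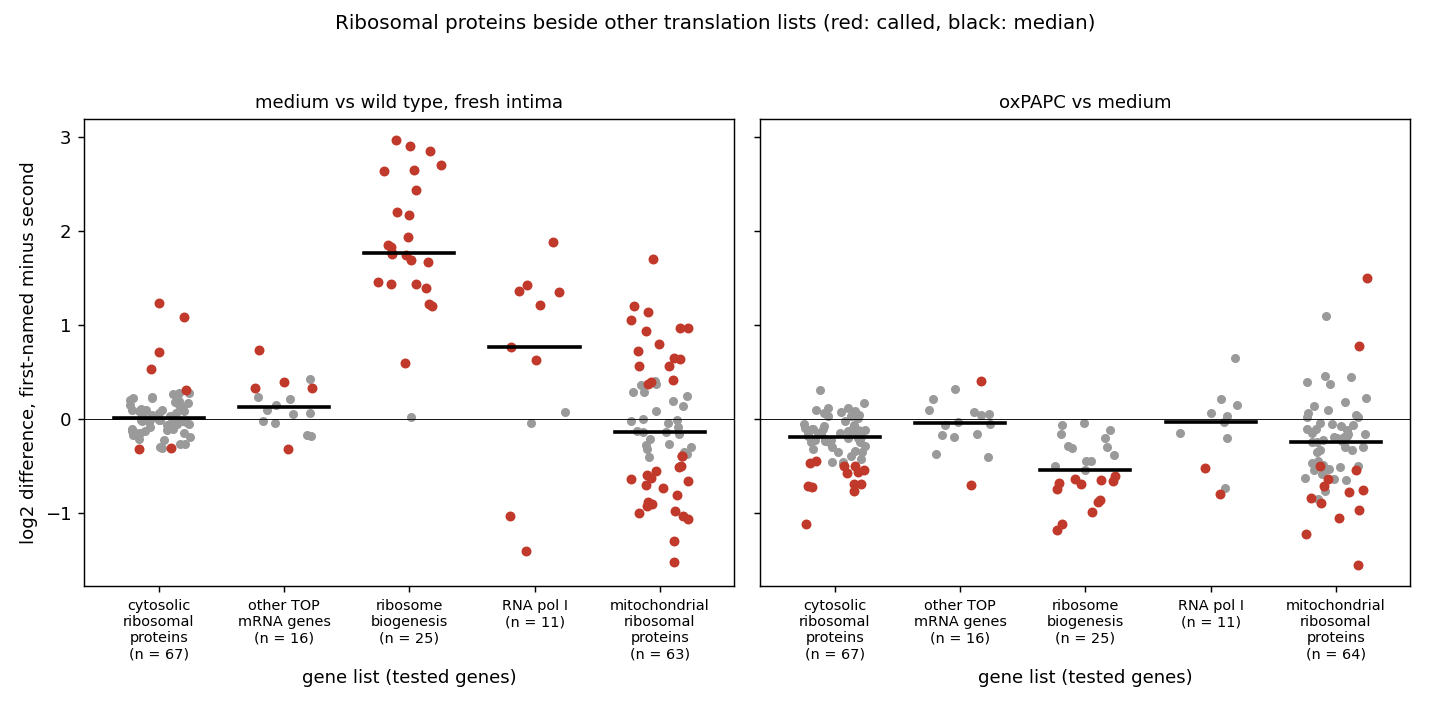
Log2 differences of tested genes in 5 lists, for medium minus fresh wild type (left) and oxPAPC minus medium (right); red points passed the limma test and black bars are medians. In medium the biogenesis factors centre on 1.77 and the cytosolic ribosomal proteins on 0.01; with oxPAPC the medians are −0.54 and −0.19.

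Cell type markers moved in the same contrast. Of 13 smooth muscle markers 11 were lower in medium (median −1.002), of 13 macrophage markers 12 were higher (median 1.24), of 16 endothelial markers 5 were higher and 2 lower, and of 8 fibroblast markers 2 were higher and 6 lower. The largest called differences were those of Cnn1 (−1.82) for smooth muscle, Cd68 (2.29) for macrophages, Cldn5 (1.43) and Clec14a (−2.66) for endothelium, Dcn (1.33) and Col1a1 (−3.07) for fibroblasts and Alas2 (−1.66) for erythroid cells and platelets. The mean over 13 smooth muscle markers ranged from 7.84 to 8.78 in medium and from 8.96 to 9.85 in fresh wild-type arrays. The macrophage mean over 15 genes ranged from 6.29 to 6.51 in medium and from 4.78 to 5.46 in fresh wild-type arrays, where 7 of the 15 averaged below the 40th percentile. The part of this shift in the members' differences was not tested.

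In fresh intima, loss of ApoE went with no called member in either direction. Over all 7264 genes 0.138% were higher and 0.289% lower in ApoE -/- intima by limma. The members' median difference was −0.02, as was that of all genes, and the median size 0.05 against 0.16. At an unadjusted p under 0.05, 3 members were higher and none lower: Rpl12, Rpl29 and Rps14. They are named as the 3 smallest p values, and some genes pass an unadjusted threshold by chance. Rpl12, at the base of the large subunit stalk, had 8.42, 8.57, 8.21 and 8.44 in ApoE -/- intima and 8.09 (median 8.16) to 8.32 in wild type, a difference of 0.24 ± 0.10 (adjusted p = 0.238). Rpl29, a large subunit protein, had 9.56, 9.59, 9.59 and 9.55 against 9.15 (median 9.38) to 9.48, so its groups did not overlap (0.23 ± 0.10, adjusted p = 0.248). Groups did not overlap for 3 of 67 tested members and for 376 of 7264 genes, nearly the same share. Rps14, on the platform of the small subunit near the mRNA exit, had 10.38, 10.55, 10.47 and 10.29 against 10.05 (median 10.22) to 10.33 (0.21 ± 0.09, adjusted p = 0.258). The largest difference by size was that of Rpl7l1, with 5.20, 6.70, 6.86 and 6.01 in ApoE -/- intima, at −0.65 ± 0.33 (95% interval −1.36 to 0.07, adjusted p = 0.32). Both groups of Rpl7l1 spread over more than 1 log2 unit and overlapped. Smooth muscle markers were higher in ApoE -/- intima in 13 of 13 genes (median 0.48) with none called. All 6 tested erythroid and platelet markers were lower (median −0.38), and Ppbp, a platelet chemokine gene, was the 1 marker called (−2.93 ± 0.53, adjusted p = 0.0427). The mean over 7 markers of that list ranged from 6.501 to 6.82 in ApoE -/- intima and from 6.78 to 7.83 in wild type. The part of either list in the members' values was not tested.

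LPS lowered 1 member relative to medium and raised none, with 3.36% of 7550 genes higher and 5.68% lower. Rps14 measured 9.56, 9.66 and 9.44 with LPS and 10.27, 10.14 and 10.15 in medium. Every LPS array lay below every medium array, and the difference was −0.64 ± 0.15 (0.644-fold, adjusted p = 0.0268). The call was lost in all 6 fits with 1 array left out, at adjusted p from 0.0544 to 0.0888, while the difference stayed between −0.69 and −0.58. Rps14 has 1 probe set, which ends in _x_at, a mark of possible cross-hybridization. No other member passed, and at an unadjusted p under 0.05, 10 members were lower and 1 higher.

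With LPS 57 of 67 member differences were negative, with a median of −0.15 against −0.03 for all genes. The members' median deviation from their gene means was −0.13, 0.01 and −0.13 on LPS replicates 3, 4 and 10 and 0.19, 0.06 and −0.04 on medium replicates 9 to 11. Taken by array the groups therefore overlapped, and medium replicate 9 stood highest of the 6. Rpsa, a small subunit protein also known as the laminin receptor, had 9.24, 9.24 and 9.18 with LPS against 9.66, 9.60 and 9.83 in medium (−0.48 ± 0.15, adjusted p = 0.0627). Rps20 was the 1 member higher at an unadjusted p under 0.05, named here after its value was seen, with 10.98, 11.08 and 11.03 against 10.83, 10.76 and 10.70 (0.27 ± 0.12, adjusted p = 0.167). Rpl7l1 differed by −0.38 ± 0.27 (adjusted p = 0.376). Groups did not overlap for 23 of 67 tested members and for 2630 of 7550 genes tested, nearly the same share. LPS also went with 5 of 16 endothelial markers lower (median −0.53), 4 of 15 macrophage markers lower, 2 of 8 fibroblast markers lower and 3 of 13 smooth muscle markers higher, and their part was not tested. The leading ones were Clec14a (−1.29), C1qc (−1.42), Lum (−1.09) and Lmod1 (0.90). Among translation genes the largest called differences were those of Rheb, the activator of mTORC1 (−0.63 ± 0.17), Taf1b (1.09 ± 0.23), Eif2s3x (0.40 ± 0.11) and the mitochondrial Mrps5 (0.997 ± 0.19).

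oxLDL changed no member against medium by limma, where 0.742% of genes were higher and 2.07% lower. At an unadjusted p under 0.05, 1 member was higher and 6 lower. Rplp0, the core of the stalk that recruits elongation factors, was the higher one, with 10.19, 9.90 and 10.22 with oxLDL against 9.77, 9.62 and 9.65 in medium. Its groups did not overlap, and the difference was 0.42 ± 0.15 (adjusted p = 0.126). Groups did not overlap for 16 of 67 tested members and, a larger share, for 2131 of 7550 genes. Rps7, a small subunit protein, had 9.75, 9.29 and 9.43 with oxLDL against 10.03, 9.88 and 9.87 (−0.44 ± 0.14, adjusted p = 0.107). Rpl35a, a large subunit protein, gave −0.50 ± 0.17 (adjusted p = 0.12). The members' median was −0.05 and that of all genes 0.01. Rps18, in the head of the small subunit, had the lowest difference of all members and was named after its value was seen. It had 8.47, 8.12 and 8.38 with oxLDL against 9.26, 8.89 and 8.61 in medium, without overlap (−0.60 ± 0.23, adjusted p = 0.155). With each array centred on its median, 92 of all genes were higher and 135 lower with oxLDL, against 56 and 156 as deposited. Of the cell type markers, all 13 for smooth muscle were higher with oxLDL (median 0.63) with none called. Lower calls were made for 1 of 16 endothelial markers (Emcn, −1.13), 1 of 15 macrophage markers (C1qa, −0.88), 2 of 8 fibroblast markers (Lum, −1.56, and Dcn, −0.76) and 1 of 6 erythroid and platelet markers (Hba-a2, −0.84). The part of these markers was not tested. Rheb was lower here too (−0.89 ± 0.17), and the mitochondrial Mrpl18 (0.74 ± 0.15) and Mrpl13 (−1.12 ± 0.26) had the largest called rise and fall of their list.

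oxPAPC gave the most calls of the 3 stimuli, all of them downward. Against medium, 13 of 67 members were lower and none higher, where 8.34% of 7550 genes were higher and 12.9% lower. As a share called in either direction, 19.4% of members stood beside 21.3% of all genes, so the number called was near the background. The median difference was −0.19 for members and −0.05 for all genes, and 54 of the 67 were negative. By role, 7 of 40 large subunit genes, 5 of 23 small subunit genes and 1 of 4 tested paralogs were lower. The groups did not overlap in 27 of 67 members, including 12 of the 13 called, and in 3031 of 7550 genes. The shares were nearly the same, so this count too was near the background.

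The largest of these differences belonged to Rpl7l1. It had 6.77, 6.46 and 7.64 with oxPAPC against 8.31, 7.99 and 7.90 in medium. Its oxPAPC arrays were all below the medium arrays, and the difference was −1.12 ± 0.27, 0.462-fold (adjusted p = 0.0147). A second probe set gave −0.87 ± 0.25.

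Rpsa measured 8.70, 8.87 and 9.22 with oxPAPC and 9.66, 9.60 and 9.83 in medium. It fell by 0.77 (SE 0.15, 0.588-fold, adjusted p = 0.00574). A second, dim probe set of Rpsa, with a mean signal of 4.78, gave 0.14 ± 0.19, and with the mean of all probe sets the call was lost. Rps14 measured 9.35, 9.57 and 9.49 against 10.27, 10.14 and 10.15, with no overlap, and fell by 0.71 (SE 0.15, adjusted p = 0.00845). Rpsa and Rps14 were the only called members that passed in all 6 fits with 1 array left out. The 1 probe set of Rps14 ends in _x_at, so none free of possible cross-hybridization stands beside it. For medium minus fresh wild type Rpsa gave 0.06 ± 0.16 and Rps14 −0.03 ± 0.10, neither of which passed the test.

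Rpl36, a large subunit protein, had 8.72, 9.21 and 9.75 with oxPAPC against 10.14, 9.88 and 9.84 in medium (−0.73 ± 0.23, adjusted p = 0.0396), and a second probe set gave −0.63 ± 0.19. Rplp2, one of the paired acidic proteins of the stalk, had 8.41, 8.55 and 9.02 against 9.38, 9.29 and 9.40 (−0.70 ± 0.20, adjusted p = 0.03). Both genes spread widely with oxPAPC and narrowly in medium. Its partner Rplp1 had 7.65, 7.83 and 7.97 against 8.43, 8.42 and 8.11 (−0.50 ± 0.15, adjusted p = 0.0308). Rpl12, on which the stalk rests, gave −0.46 ± 0.17 (adjusted p = 0.0769), and Rplp0 −0.12 ± 0.15 (adjusted p = 0.594). So 2 of the 4 stalk genes were called.

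The remaining calls were Rps18, Rpl13, Rpl13a, Rps9, Rpl8, Rpl29 and Rps7, at differences from −0.70 for Rps18 to −0.45 for Rps7. Rps9, which sits near the mRNA entry of the small subunit, had 8.59, 8.71 and 8.67 with oxPAPC against 9.45, 9.17 and 8.98 in medium (−0.55 ± 0.17, adjusted p = 0.0366). Rpl8 had 8.63, 8.56 and 8.64 against 9.19, 9.07 and 9.08 (−0.51 ± 0.12, adjusted p = 0.0149). Its oxPAPC values lay close together and below all other arrays of the series. Rpl13a, which also serves in a complex that silences inflammatory mRNAs, had 7.81, 7.98 and 7.94 against 8.64, 8.40 and 8.38 (−0.56 ± 0.15, adjusted p = 0.0213). Rps18 overlapped, since its oxPAPC array at 8.68 exceeded the medium array at 8.61. A second probe set of Rpl13 gave 0.01 ± 0.21, so of the 4 other probe sets of called members 2 had the sign of the main one. Of the 8 called members with a promoter window 2 had a TOP-like start (25%), as did 8 of the 46 other tested members (17.4%), too few to compare.

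**Figure D4:**
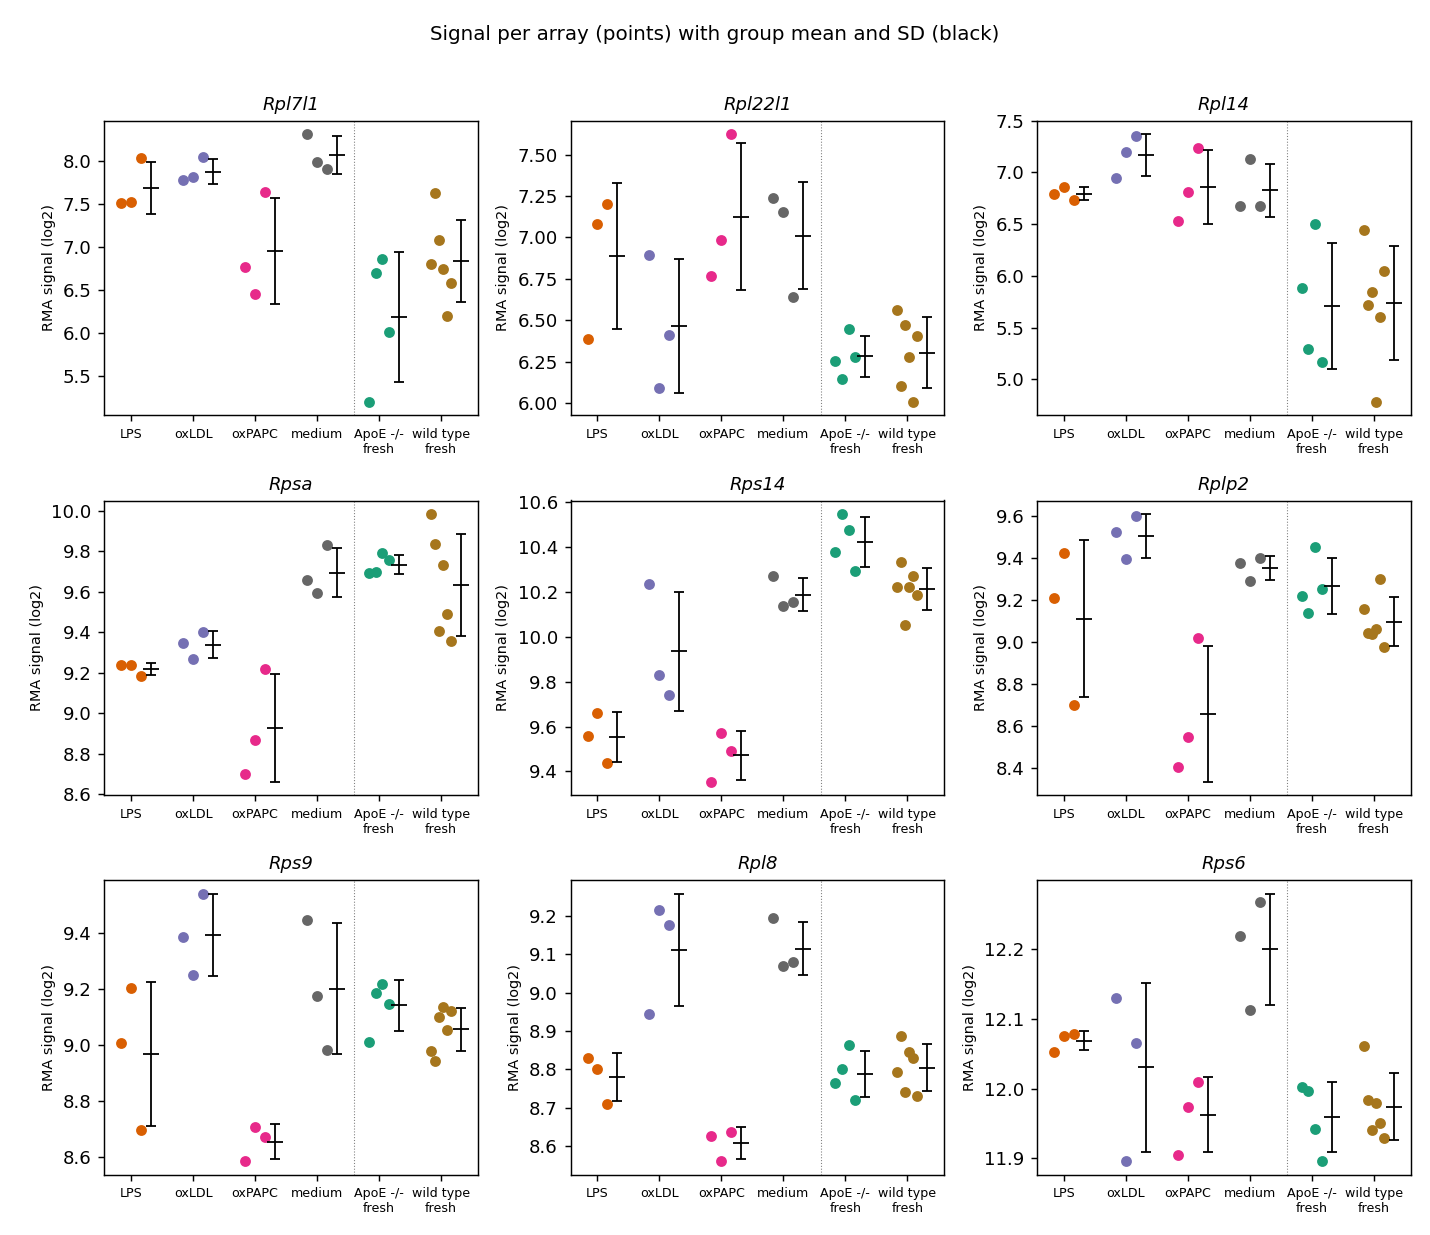
Log2 signal of 9 members on every array (points), with the group mean and SD in black; the dotted line separates incubated from fresh intima, and each panel has its own vertical range. Rpl7l1, Rpl22l1 and Rpl14 are higher in medium than in fresh intima, while Rpsa, Rps14, Rplp2, Rps9 and Rpl8 are lower with oxPAPC than in medium.

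The 3 oxPAPC arrays differed from each other in most members at once. Replicate 11 had the lowest value of the 3 for 60 of the 67 tested members and replicate 13 the highest for 57. As the median deviation of the members from their gene means, the arrays stood at −0.25, −0.12 and −0.01 with oxPAPC and at 0.19, 0.06 and −0.04 in medium, in replicate order 11 to 13 and 9 to 11. The count called was 2 without medium replicate 9, 6 without medium replicate 10, 10 without medium replicate 11, 3 without oxPAPC replicate 11, 2 without oxPAPC replicate 12 and 15 without oxPAPC replicate 13. Counts over all genes are not set beside these, so the swing cannot be read as particular to the members. With each array centred on its median 8 members and 838 of all genes were lower, against 13 and 976 as deposited. With only the 6 arrays of these groups 7 members were lower.

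Markers moved with oxPAPC too. Of 16 endothelial markers 10 were lower (median −0.98), of 15 macrophage markers 9 were lower (median −0.76) and of 13 smooth muscle markers 10 were higher (median 1.04). The mean over 17 endothelial markers was 7.55, 7.67 and 8.06 in oxPAPC replicates 11, 12 and 13 and 8.46, 8.51 and 8.63 in the medium arrays. The mean over 13 smooth muscle markers ranged from 9.03 to 9.47 with oxPAPC and from 7.84 to 8.78 in medium. The largest called differences were those of Cldn5 (−1.56), C1qc (−1.18), Myl9 (1.25), Col3a1 (1.24) and Lum (−1.86) among endothelial, macrophage, smooth muscle and fibroblast markers, and of the hemoglobin gene Hba-a1 (−2.15). Another hemoglobin gene, Hba-a2, went the other way, averaging 10.17 with oxPAPC and 9.99 in medium. Among the oxPAPC arrays the one with the lowest endothelial mean was also lowest for most members. Among the medium arrays the order was reversed. Medium replicate 11 had the highest endothelial mean (8.63) and the lowest median deviation of the members (−0.04). The part of cell composition in the members' fall was not tested.

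Biogenesis factors fell with oxPAPC as well. Of 25 tested, 12 were lower and none higher (median −0.54), with Nhp2 at −1.19 ± 0.20 (adjusted p = 0.0031). Eif6, which keeps the large subunit from joining until it is mature, was lower (−0.76 ± 0.16), while Eif4g2, an initiation factor related to eIF4G, was higher by 0.45 ± 0.14. Among other TOP mRNAs Eif3l was lower (−0.70 ± 0.14) and Hnrnpa1 higher (0.40 ± 0.13), and the other 14 of 16 did not pass. Of 64 mitochondrial ribosomal protein genes 12 were lower and 2 higher, with Mrpl44 at −1.56 ± 0.45 and Mrpl57 at 1.499 ± 0.25. Polr1b, a subunit of RNA polymerase I, was lower (−0.80 ± 0.21), as was the mTORC1 inhibitor Tsc1 (−0.74 ± 0.19), and the sestrin Sesn3 was higher (0.62 ± 0.16). Against medium, biogenesis factors had none higher or lower with LPS and 1 lower with oxLDL (Nop56, −0.61 ± 0.12).

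**Figure D5:**
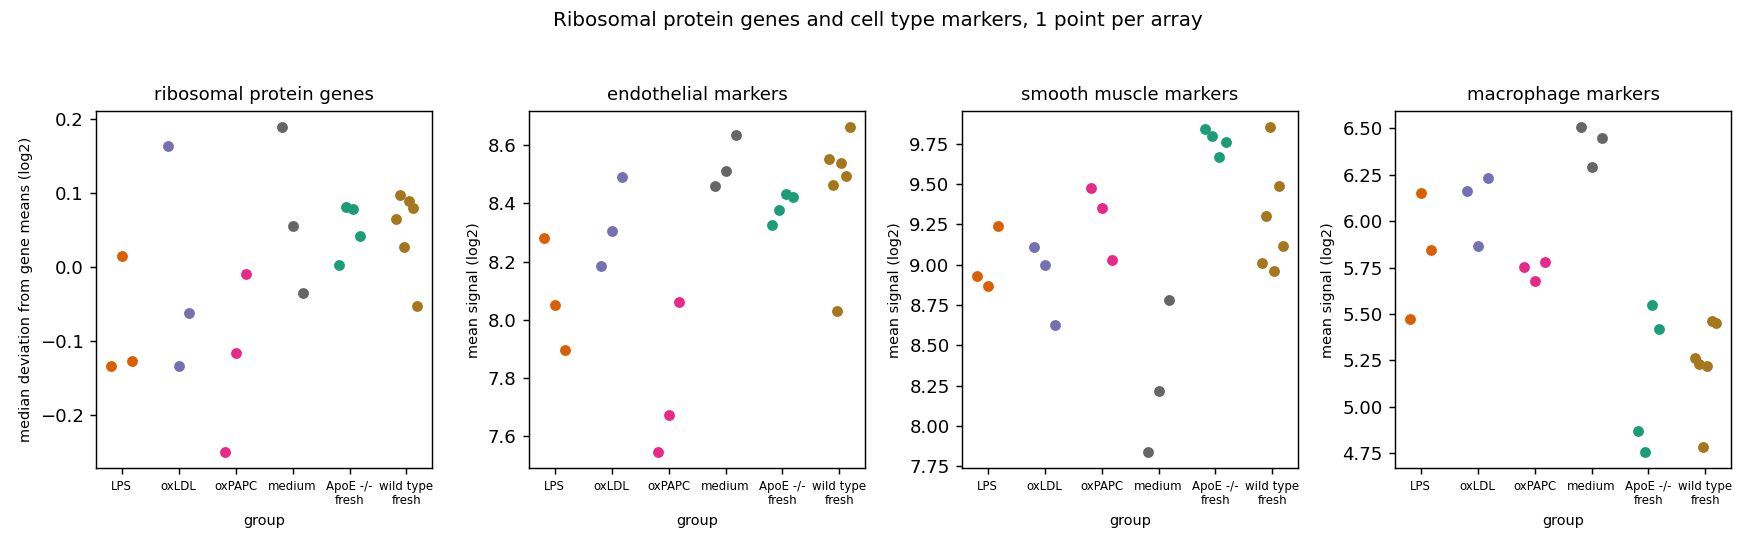
One point per array in each group: median deviation of the 67 tested members from their gene means (left), and mean log2 signal of 17 endothelial, 13 smooth muscle and 15 macrophage markers. oxPAPC replicates 11 and 12 lie lowest in the endothelial panel, medium replicates 9 and 10 lie lowest for smooth muscle, and all medium arrays lie highest for macrophage markers.

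The stimuli were also set against each other in the same fit, which tests whether their effects differ. These comparisons and those against medium share arrays, so their values are not independent. LPS against oxLDL had no called member, where 2.21% of genes were higher with LPS and 2.86% lower, and 1 member was higher and 7 lower at an unadjusted p under 0.05. The smallest p values there belonged to Rpl13 (−0.42 ± 0.15, adjusted p = 0.124), Rpl8 (−0.33 ± 0.12, adjusted p = 0.14) and Rps9 (−0.42 ± 0.17, adjusted p = 0.162). Outside the members, the largest called differences for LPS against oxLDL were those of Taf1b (0.93), Ubtf (−0.72), Mrpl35 (1.03) and Fau (−0.67), and among markers Emcn (0.63), Clec14a (−1.32), Fcgr3 (−0.94) and Hba-a2 (0.86). Hba-a1 gave −0.06 ± 0.54 there. LPS against oxPAPC had no called member either, where 4.69% of genes were higher with LPS and 3.96% lower, and 5 members were higher and none lower unadjusted. Rpl29 had 9.36, 9.41 and 9.02 with LPS against 8.81, 8.68 and 8.94 with oxPAPC (0.45 ± 0.14, adjusted p = 0.0673), and its groups did not overlap. In that contrast groups did not overlap for 9 of 67 tested members and, a larger share, for 2097 of 7550 genes. Rpl7l1 gave 0.73 ± 0.27 (adjusted p = 0.11) and Rps19, a small subunit maturation protein, 0.38 ± 0.16 (adjusted p = 0.165). Rps14, called in both stimuli against medium, gave 0.08 ± 0.15 between LPS and oxPAPC, with an interval from −0.25 to 0.41. For LPS against oxPAPC the other lists were led by Wdr12 (1.12), Eif6 (0.78), Eif3l (0.64), Mrpl33 (1.03) and Mrpl57 (−1.71), and by the endothelial Cldn5 (1.11) and Clec14a (−1.67). Leaving out 1 array gave 4 called members for LPS against oxPAPC without oxPAPC replicate 13, 1 without LPS replicate 10 and 0 otherwise.

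For oxLDL against oxPAPC, at equal mass per volume of the preparations, 8 members were higher with oxLDL and none lower, where 7.8% of genes were higher and 4.57% lower. The share of members called, 11.9%, was near the background of 12.4% of all genes in either direction. None of the 8 calls held once oxPAPC replicate 11 or 12 was left out. Their median difference was 0.14, and 0.04 over all genes. Rpl7l1 had 7.78, 7.81 and 8.04 with oxLDL against 6.77, 6.46 and 7.64 with oxPAPC (0.92 ± 0.27, adjusted p = 0.0418). Rps9 had 9.39, 9.25 and 9.54 against 8.59, 8.71 and 8.67 (0.74 ± 0.17, adjusted p = 0.0153). Neither gene overlapped between the preparations. Groups did not overlap for 18 of 67 tested members and for 2263 of 7550 genes, nearly the same share, so this count was near the background. Rpl13, a large subunit protein, had 8.56, 8.31 and 8.43 against 7.67, 7.72 and 7.93 (0.66 ± 0.15, adjusted p = 0.0148), and Rpl29 had 9.49, 9.47 and 9.38 against 8.81, 8.68 and 8.94 (0.64 ± 0.14, adjusted p = 0.0144). Rpl8 was the eighth by size, at 0.50 ± 0.12.

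Of the 4 genes of the stalk and its base 3 were called in that contrast. Rplp2 had 9.52, 9.39 and 9.60 with oxLDL against 8.41, 8.55 and 9.02 with oxPAPC (0.85 ± 0.20, adjusted p = 0.0185). Rplp1 had 8.51, 8.28 and 8.28 against 7.65, 7.83 and 7.97 (0.54 ± 0.15, adjusted p = 0.0318), and Rplp0 had 10.19, 9.90 and 10.22 against 9.56, 9.69 and 9.44 (0.54 ± 0.15, adjusted p = 0.0322). All 3 were higher in every oxLDL array than in any oxPAPC array, a separation whose count was near the background as given above. Rpl12 gave 0.42 ± 0.17 (adjusted p = 0.131). With 1 array left out, 5, 5 and 2 members were called without oxLDL replicates 14, 15 and 16. With only the 6 arrays of both groups 4 members were called. Endothelial markers were higher with oxLDL in 6 of 16 (median 0.71) and 1 of 13 smooth muscle markers was lower (Itga8, −0.91), and their part was not tested. Other leading markers were Cldn5 (1.97), Lyz2 (1.05) and Hba-a2 (−1.02). Hba-a1 went the other way, averaging 9.24 with oxLDL and 7.80 with oxPAPC. Biogenesis factors were higher with oxLDL in 12 of 25 and lower in none, led by Rrp12, a pre-ribosome export factor, at 1.37 ± 0.26. Fau was higher by 0.71 ± 0.16, and the largest called differences of the remaining lists were those of Ubtf (1.08), Eif4ebp1 (1.18), Eif6 (0.88), Eif3l (0.53), Mrpl40 (0.95) and Mrpl57 (−1.21).

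Across comparisons 7 members were called higher in at least 1 contrast and lower in another: Rpl13, Rpl29, Rpl7l1, Rpl8, Rplp1, Rplp2 and Rps9. All 7 were lower for oxPAPC against medium and higher for oxLDL against oxPAPC, which use the same oxPAPC arrays. In both of these contrasts oxPAPC was the low group, and the sign differs only by which group is named first. Rpl7l1 and Rpl8 were also higher in medium than in fresh wild type.

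The paralogs varied more than the subunit genes. Their tested members had a median span over the 6 group means of 0.75, against 0.40 for large and 0.33 for small subunit genes, though only 4 were tested and their probe sets were dimmer (median level 7.54, against 9.90 and 9.92). Rpl22l1 had 6.89, 6.09 and 6.41 with oxLDL, 6.77, 6.98 and 7.62 with oxPAPC, and 6.38, 7.08 and 7.20 with LPS. Its differences from medium were −0.55 ± 0.29, 0.11 ± 0.29 and −0.12 ± 0.29, none of which passed. oxLDL against oxPAPC gave −0.66 ± 0.29 for Rpl22l1 (adjusted p = 0.157), the opposite sign to most members there. Rps27l, a paralog of Rps27 that p53 induces, averaged 7.61 ± 0.17 in ApoE -/- intima and 7.90 ± 0.26 in wild type (SD, n = 4 and 6), and no comparison of it passed. Rpl36al averaged 10.41 ± 0.17 with oxPAPC and 10.76 ± 0.19 in medium (SD, n = 3 each), at −0.34 ± 0.17 (adjusted p = 0.166).

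At the even end, Rpl3l, Rpl17 and Rps24 had the narrowest spans of group means, 0.11, 0.12 and 0.14, the first of them below the level filter. Rps24, a small subunit protein mutated in an inherited human anemia, ranged from 10.02 to 10.60 over all incubated arrays and from 10.16 to 10.41 in fresh wild-type ones. Rpl11, which with Rpl5 and 5S rRNA can bind the p53 regulator Mdm2, stayed within 10.32 to 10.76 on all 22 arrays. Its difference was −0.12 ± 0.12 with oxPAPC, −0.02 ± 0.12 with LPS, 0.02 ± 0.12 with oxLDL, −0.20 ± 0.09 in medium against fresh wild type and −0.02 ± 0.08 for ApoE -/- against wild type. None passed the test, but a second, dimmer probe set of Rpl11 gave 0.86 ± 0.11 in medium against fresh wild type. With the mean of both probe sets the Rpl11 difference became 0.33, so its direction there rests on the probe set. The same held for Rpl13, at 0.14 ± 0.12 with the main probe set and −0.53 with the mean of all.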

How the data were processed

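Per the submitters' processing notes, the deposited values are log2 signals that the authors computed from 22 Affymetrix 3′ arrays by RMA (affy, no versions given). RMA brings all arrays close to 1 distribution, so a shift of most transcripts one way would be largely hidden. The deposited array medians still ran from 5.23 to 5.39. The array number limits precision. Of 22626 probe sets, the platform annotation gives 18003 a single symbol, 287 several and 4336 none. The last 2 kinds were left out, among them 9 probe sets for ribosomal proteins. Symbols were updated by gene ID through a RefSeq table (GRCm38.p6). Of the members' probe sets 21 end in _x_at and 6 in _s_at, marks of possible cross-hybridization with near-identical copies.

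Genes were tested where they exceeded the 40th percentile on as many arrays as the smaller group holds. limma 3.58.1 (lmFit, eBayes; R 4.3.3) was fitted to the 10 fresh arrays, the 12 incubated arrays, or the 9 of medium and fresh wild type. Tests were two-sided, p-values were adjusted by Benjamini-Hochberg across all genes of a fit, and calls were made at an adjusted p under 0.05. Counts at an unadjusted p under 0.05 are not set beside the share of all genes at that threshold, so they describe values only. Each ± is a standard error unless SD is written, and intervals are 95%. The code was tested on simulated data.

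Named are the 5 largest called rises and falls per comparison (with none called, the 3 smallest p), paralogs, Rplp0, Rplp1, Rplp2, Rpl11, members called both ways, the 3 widest and 3 narrowest spans, and each other list's largest called rise and fall. Other names were chosen after their values were seen. The members and lists were chosen with earlier results of these data known. Alternatives covered scaling, filter, probe set choice, variance trend, arrays in the fit and arrays left out.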

Additional observations from a re-analysis of the deposited data

Results flagged for a closer look

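Of 44 sets of values tested for a lone outlying array in the fresh groups, 1 had one, where chance gives about 1 in 20. Rpl17, a large subunit protein at the peptide tunnel, measured 9.42 in wild-type replicate 15, apart from the other 5 fresh wild-type arrays at 9.66 to 9.76.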

How the results depend on the processing

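No paired analysis was possible because the groups compared share fewer than 2 replicate numbers. Counts of called members moved with the processing as follows, and apart from fewer arrays or members in a fit the cause was not tested. LPS against medium (1 called) gave 0 with probe sets free of _x_at and _s_at, where Rps14, the 1 called, has no probe set and drops out. It gave 4 with an intensity trend, 4 with all 22 arrays in 1 fit and 0 to 0 with an array left out. oxLDL against medium (0 called) gave 1 without suffixed probe sets and 2 with all 22 arrays. oxPAPC against medium (13) gave 8 with median centring, 7 with only the 2 groups and 2 to 15 with an array left out. Medium against fresh wild type (7) gave 13 with cyclic loess, 17 with the mean of all probe sets, 12 without suffixed probe sets, 16 with an intensity trend and 5 to 9 with an array left out. LPS against oxLDL (0) gave 1 with the mean of probe sets, 1 without suffixed ones and 2 with all 22 arrays. LPS against oxPAPC (0) gave 1 with the mean of probe sets, 1 with an intensity trend, 1 with all 22 arrays and 0 to 4 with an array left out. oxLDL against oxPAPC (8) gave 4 with only the 2 groups and 0 to 9 with an array left out. For single named members, 1910 values under alternatives kept their direction and side of the threshold, 92 fell short of it, 25 passed it newly and 2 changed sign: in medium against fresh wild type with the mean of all probe sets, Rpl11 became 0.33 and Rpl13 −0.53.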
